A study of Mus musculus with 4 samples.

Results

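The Sox genes encode transcription factors that share a DNA-binding high mobility group box, and 10 of them were examined here in mouse medulloblastoma, a tumour of the cerebellum. The members were named in advance by subgroup: Sox2 and Sox3 (SoxB1), Sox4, Sox11 and Sox12 (SoxC), Sox5 and Sox6 (SoxD), and Sox8, Sox9 and Sox10 (SoxE). They are 10 of the 33219 genes listed for at least 1 tumour, where 19 Sox genes appear in all. 9 of the 10 are among the 13149 genes listed for all 4 tumours, and Sox3 is listed for tumours 1 and 4 alone.

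Single-cell RNA was measured on the 10x Genomics platform in 4 tumours, replicates 1 to 4 of 1 group. Every tumour came from mice heterozygous for Ptch1, the receptor that holds the sonic hedgehog pathway off, which had been irradiated at birth and are labelled as otherwise untreated. Tumours were taken at end point, kept frozen as living cell suspensions and sorted for live cells. Tumour and host cells alike carry the heterozygous allele, there is no untumoured or wild-type cerebellum, and the labels do not say whether each tumour came from its own mouse. All comparisons are therefore between classes of cells within the same tumours.

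SoxB1 factors keep neural stem and progenitor cells undifferentiated, and SoxC factors act after them, in cells that have begun to differentiate into neurons. The SoxD factors lack a transactivation domain and modulate the action of other Sox proteins. SoxE factors act in glia, where Sox9 is needed for the switch to glial fate and for astrocytes, and Sox10, with Sox8, for oligodendrocyte differentiation. In the cerebellum, granule neurons arise from Atoh1-expressing progenitors that divide in response to sonic hedgehog, and these progenitors are the origin of this kind of tumour.

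3 promoter windows are printed because Sox4, Sox11 and Sox5 were the members higher together in the neuron-like cells described further on. Each is the 250 bases before the RefSeq start, on the minus strand of GRCm38.p6: chr13:28953700-28953949 for Sox4, chr12:27342719-27342968 for Sox11 and chr6:143947107-143947356 for Sox5. Capitals mark CAGCTG, an E-box form that basic helix-loop-helix factors bind, or ACAATG, a form of the Sox core site.
Sox4: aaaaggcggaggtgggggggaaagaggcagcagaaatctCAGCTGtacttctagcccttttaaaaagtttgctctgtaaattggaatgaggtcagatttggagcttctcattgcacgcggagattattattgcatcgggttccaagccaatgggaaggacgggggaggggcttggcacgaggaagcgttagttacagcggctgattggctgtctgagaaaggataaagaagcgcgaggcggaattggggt
Sox11: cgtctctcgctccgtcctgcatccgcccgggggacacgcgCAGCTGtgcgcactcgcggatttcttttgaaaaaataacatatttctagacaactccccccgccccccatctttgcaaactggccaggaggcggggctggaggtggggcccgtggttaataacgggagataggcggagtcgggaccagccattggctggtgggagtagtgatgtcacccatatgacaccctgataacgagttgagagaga
Sox5: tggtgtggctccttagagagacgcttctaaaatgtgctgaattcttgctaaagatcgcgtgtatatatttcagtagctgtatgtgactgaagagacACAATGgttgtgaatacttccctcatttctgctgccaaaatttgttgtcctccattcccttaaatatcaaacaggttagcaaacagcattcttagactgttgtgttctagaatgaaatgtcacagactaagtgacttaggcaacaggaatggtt
Sox4 and Sox11 each held 1 CAGCTG, 211 and 210 bases before the start, and Sox5 held 1 ACAATG 154 bases before it. Both strands were searched for the E-boxes CAGCTG and CAGATG, the Sox cores ACAATG and ACAAAG and the Gli site GACCACCCA, and no matches overlapped one another in these 3 windows. Among 32851 promoter windows, CAGCTG was in 13%, CAGATG in 14.4%, ACAATG in 10.7%, ACAAAG in 16.5% and GACCACCCA in 0.23%. A match is a description of the letters and was not tested as a binding site. 7 of the 10 members had a window in the table. In the GENCODE M21 annotation of GRCm38, Sox4 is a single-exon gene at chr13:28948919-28953713 and Sox11 a single-exon gene at chr12:27334264-27342574. Sox5 spans chr6:143828425-144781977, so that its printed window lies inside the longest form of the gene.

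The 4 files held 798, 2589, 1229 and 1893 cells in tumours 1 to 4, with 10458431 to 23439893 UMIs (unique molecular identifiers, each counted molecule) in a tumour and a median of 6799 to 15284 UMIs per cell. Cells were clustered without any Sox gene and named from marker genes, and UMIs were summed per tumour and class and given as CPM, a level relative to all UMIs of that sum. Clusters were named by marker scores, each the mean log2 level of a marker set relative to the other clusters. Progenitor-like clusters needed a score of at least 0.7 for granule progenitor markers such as Atoh1 and Gli1. Where their score for cycling genes was under 1, a granule progenitor score of at least 1 was needed. Progenitor-like cells numbered 413, 1904, 968 and 474. Neuron-like cells numbered 51, 469, 169 and 137, and myeloid-like cells 83, 124, 12 and 455. The glial classes were small, with 10, 11, 15 and 18 astrocyte-like cells and, in tumours 2 to 4, with 13, 21 and 12 oligodendrocyte lineage-like cells. Tumour 4 stood apart: 460 of its progenitor-like cells were in a cluster of mixed cell-cycle phase that the other tumours lacked. Its neuron-like cells formed a cluster of their own (cluster 13, against cluster 3 in tumours 1 to 3). The cycling score was 1.11 in cluster 13 and -0.40 in cluster 3, and the part of dividing cells' RNA in cluster 13 was not tested. Library pairs shared between 0 and 7 cell barcodes.

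**Figure D1:**
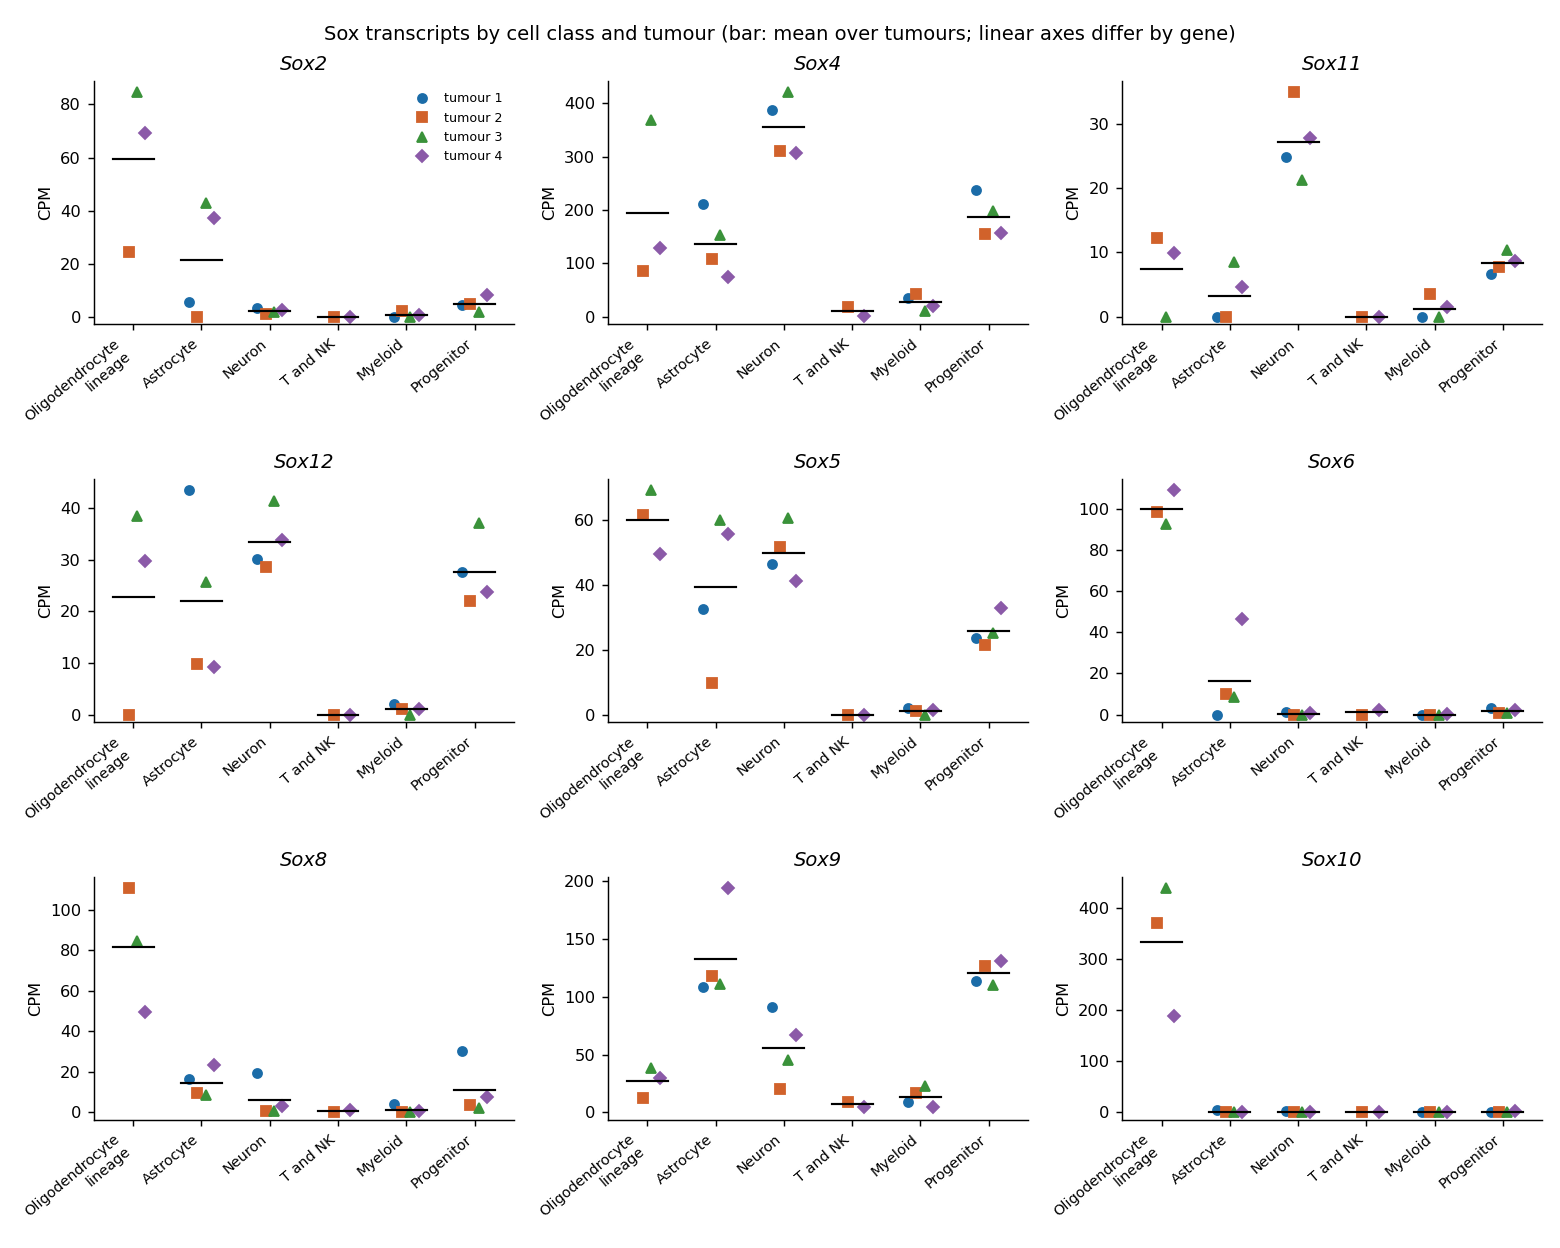
Summed-UMI level of 9 Sox genes (CPM, linear axes that differ between panels) in 6 classes of cells, with 1 point per tumour and a bar at the mean of the tumours. Sox4 and Sox11 have their highest mean in neuron-like cells, Sox9 is high in progenitor-like and astrocyte-like cells, and Sox10, Sox6 and Sox8 have their highest mean in oligodendrocyte lineage-like cells. All 9 are low in myeloid-like cells.

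The first comparison asks which Sox genes differ between neuron-like cells and the progenitor-like cells of the same tumour. Sox4 and Sox11, the SoxC factors of young neurons, and Sox5, a SoxD factor that paces neuronal differentiation, were higher in neuron-like cells of all 4 tumours. Sox8 was lower in them, and Sox9 was lower in each tumour without passing the test. 6 of the 10 members reached the mean of 5 CPM needed for testing, and 4 passed an adjusted p of 0.05 with 3 higher and 1 lower. The background was high: 42.1% of the 9891 genes tested passed, 23.9% higher and 18.2% lower. Neuron markers summed to 2388, 5341, 3619 and 2712 CPM in the neuron-like cells of tumours 1 to 4, against 416, 1083, 1096 and 725 CPM in progenitor-like cells, and Gabra6, a gene of mature granule neurons, was at 0. Granule progenitor markers in the same neuron-like cells summed to 2584, 2159, 2772 and 1934 CPM, against 2433, 2990, 3776 and 1820 CPM in progenitor-like cells, so that they were lower in tumours 2 and 3 alone.

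Sox4 stood at 388, 310, 421 and 307 CPM in neuron-like cells of tumours 1 to 4, against 238, 156, 199 and 156 CPM in progenitor-like cells. The lowest neuron-like value was above the highest progenitor-like one. The means were 357 ± 57.0 and 187 ± 39.3 CPM (SD, n = 4 each), a difference of 0.90 on the log2(CPM + 10) scale (SE 0.075, limma adjusted p = 2.87e-06). Among neuron-like cells thinned to 2000 UMIs, 43.1, 40.9, 53.8 and 43.1% had a Sox4 UMI, against 35.6, 23.8, 29.8 and 19.8% of progenitor-like cells. Without thinning the shares were 98.0, 74.4, 81.7 and 89.1% in neuron-like and 87.9, 64.9, 65.1 and 55.1% in progenitor-like cells. The thinned share in myeloid-like cells, read as background, was 2.41, 5.65, 0 and 3.52%, and all cells held the 2000 UMIs. Median depths were 4986 to 15705 UMIs in neuron-like, 7107 to 13241 in progenitor-like and 6021 to 10937 in myeloid-like cells.

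Sox11 was at 24.8, 34.9, 21.2 and 27.7 CPM in neuron-like cells, against 6.70, 7.75, 10.5 and 8.70 CPM in progenitor-like cells. The 2 groups did not overlap. The difference was 1.00 (SE 0.13, limma adjusted p = 7.87e-05), with means of 27.1 ± 5.80 and 8.40 ± 1.59 CPM (SD, n = 4 each). Both genes were higher, and by unequal amounts: Sox4 made up 94.0, 89.9, 95.2 and 91.7% of the Sox4 and Sox11 UMIs in neuron-like cells, against 97.3, 95.3, 95 and 94.7% in progenitor-like cells. That share was lower in neuron-like cells in tumours 1, 2 and 4 and not in tumour 3. Sox12, the third SoxC gene, was at 30.2, 28.5, 41.4 and 33.9 CPM in neuron-like cells, against 27.6, 21.9, 37.2 and 23.8 CPM in progenitor-like cells. It was higher in 4 of 4 tumours, but the ranges overlapped and it missed the threshold (difference 0.22, 95% interval -0.00 to 0.44, limma adjusted p = 0.104).

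Sox5 reached 46.4, 51.6, 60.7 and 41.1 CPM in neuron-like cells, against 23.5, 21.4, 25.2 and 32.9 CPM in progenitor-like cells. Its classes did not overlap, and the difference was 0.75 (SE 0.13, limma adjusted p = 0.000674). Sox6, the other SoxD gene, was near 0 in both classes, at 1.08, 0, 0 and 1.03 CPM in neuron-like and 3.41, 0.75, 0.59 and 2.08 CPM in progenitor-like cells, below the level tested. The higher level of Sox4, Sox11 and Sox5 passed the test under every one of the 16 alternatives run, those without any 1 tumour included.

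Sox9 was at 91.7, 20.1, 45.3 and 66.8 CPM in neuron-like cells, against 114, 127, 110 and 131 CPM in progenitor-like cells. Every neuron-like value was below every progenitor-like one, but the size of the gap varied: neuron-like cells held 80.2% of the progenitor-like level in tumour 1 and 15.8% in tumour 2. With that spread the difference of -1.12 (SE 0.34, 95% interval -2.07 to -0.17) missed the threshold (limma adjusted p = 0.0676). It passed without tumour 1 (adjusted p = 0.0195) and without tumour 2 (0.0022), with cells thinned to equal depth (0.0015), with no block for tumour (0.0382), at a pseudocount of 50 (0.0288) and with mean deposited log2 values (0.0023). Atoh1, the defining gene of the progenitors, varied in the same tumours, at 73.7, 22.3, 29.2 and 78.9% of its progenitor-like level in neuron-like cells, and the part of progenitor RNA in the neuron-like sums was not tested.

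The balance of Sox4 and Sox9 separated the classes in each tumour. Sox4 made up 80.9, 93.9, 90.3 and 82.1% of the UMIs of the pair in neuron-like cells, against 67.5, 55.1, 64.4 and 54.4% in progenitor-like cells, a pair chosen after the data were seen. Within the progenitor-like class of tumours 1 to 3, the cluster with the higher neuron marker score (cluster 4) had 78.5, 98.2 and 104 CPM of Sox9, against 130, 148 and 128 CPM in the largest granule progenitor cluster. Sox9 and Sox4 were both detected in 249 of 413, 749 of 1904, 360 of 968 and 180 of 474 progenitor-like cells of tumours 1 to 4.

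Sox8 was lower in neuron-like cells of each tumour, at 19.4, 0.67, 0.96 and 3.08 CPM, against 30.5, 3.47, 2.14 and 7.38 CPM in progenitor-like cells. Tumour 1 was far above the others in both classes, so the ranges overlapped while the paired difference was -0.34 (SE 0.10, limma adjusted p = 0.0194). That call was lost under 8 alternatives, among them without tumour 2 (adjusted p = 0.0744), without tumour 4 (0.0602), with cells thinned (0.314) and with the likeliest doublets removed (0.451). Sox2 was low in both classes, at 3.23, 1.01, 1.93 and 2.57 CPM in neuron-like and 4.46, 4.76, 1.66 and 8.32 CPM in progenitor-like cells, and was not tested. Sox10 did not exceed 2.16 CPM in either class. Sox3 had 0 UMIs in neuron-like cells of tumours 1 and 4, against 2 and 6 UMIs in progenitor-like cells (0.263 and 1.13 CPM).

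**Figure D2:**
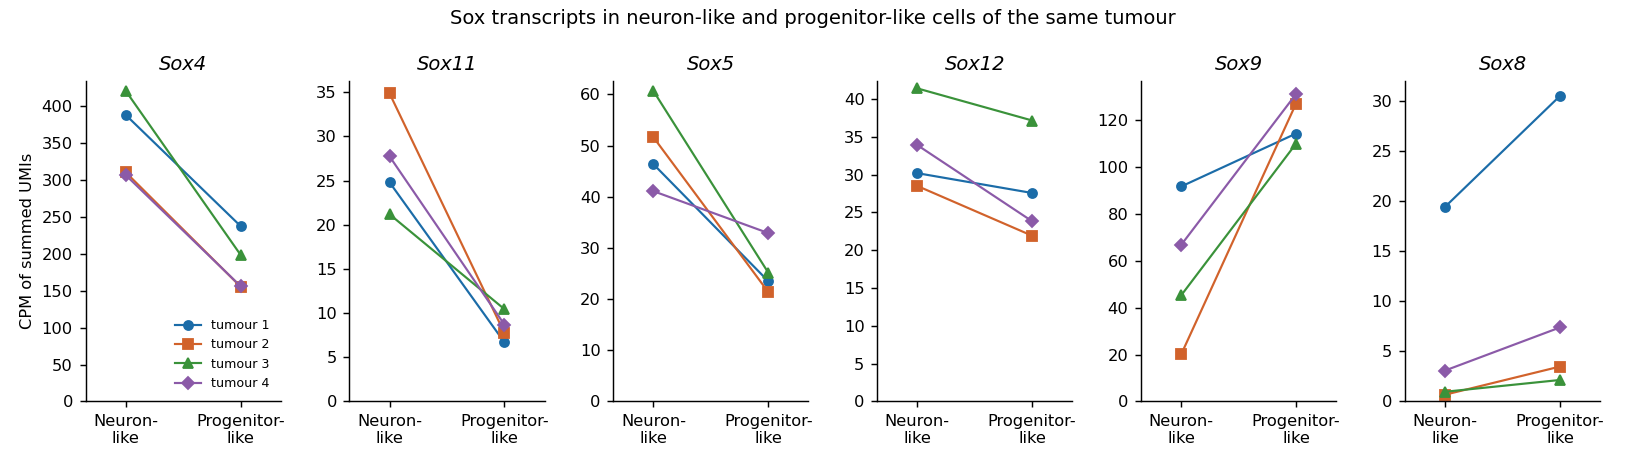
CPM of 6 Sox genes in neuron-like (left) and progenitor-like cells (right), with a line for each tumour. All 4 lines of Sox4, Sox11 and Sox5 are higher on the neuron-like side and all 4 of Sox9 are lower there, with the steepest Sox9 line in tumour 2 (20.1 against 127 CPM).

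Genes reported as SoxC targets, or as acting with SoxC factors in young neurons, were mostly higher in neuron-like cells as well. Of 10 listed, 9 were tested, 8 were higher and 1, Tead2, was lower (-0.58), with a median difference of 1.47 beside 0.04 over all genes tested. The highest were Neurod1, a driver of granule neuron differentiation (2.92, SE 0.095), Tubb3, the neuronal beta-tubulin (2.31), and Elavl4, a neuronal RNA-binding protein (1.88). Neuron markers named these cells, although none of the listed genes was among them, so the direction follows in part from the choice of cells. Of 12 SoxB1 partners and neural stem genes tested, 1 was higher and 6 lower: Pax6, also a granule cell factor, was higher (1.02), while Hes1 (-0.93) and Nes (-0.68), a Notch effector and the intermediate filament nestin, were lower. Of 6 Sox9 and Nfia genes tested, 4 were higher, led by Nfix (1.01) and Nfib (0.99), factors that granule neurons also use, and Id1 was lower (-0.60). Of 4 genes tested that act with Sox10, none was higher and Tcf7l2 (-0.63) and Olig1 (-0.46) were lower. Of 9 co-factors, Tcf4, a partner of proneural factors, (0.71) and Hdac2 (0.20) were higher, and Tcf3 (-0.33) and Ctnnb1 (-0.25) lower.

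The second comparison sets cycling-like cells against granule progenitor-like cells of tumours 1 to 3, where both could be named. The Sox genes differed little. Sox5 and Sox9 were slightly lower in cycling-like cells, 2 of 6 members tested, where 30.9% of 9739 genes passed and 17.5% were lower. Sox5 was at 21, 18.4 and 21.3 CPM in cycling-like cells, against 29.0, 25.2 and 29.1 CPM in granule progenitor-like cells, and the 2 groups did not overlap (difference -0.32, SE 0.080, limma adjusted p = 0.00638). Sox9 was at 111, 118 and 99.7 CPM in cycling-like cells, against 122, 139 and 120 CPM in granule progenitor-like cells (difference -0.20, SE 0.058, limma adjusted p = 0.0164). Both calls were lost without tumour 2 (adjusted p = 0.0710 for Sox5 and 0.135 for Sox9), and that of Sox9 also without tumour 3 (0.0837). No member passed with cells thinned or with no block for tumour.

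Sox4 was at 232, 153 and 184 CPM in cycling-like cells, against 250, 159 and 214 CPM in granule progenitor-like cells, lower in 3 of 3 tumours without passing (limma adjusted p = 0.0920), and passed with the likeliest doublets removed (0.0230). Sox11, Sox12 and Sox8 were also under the threshold (adjusted p = 0.464, 0.529 and 0.338), and Sox12 passed without tumour 3 (0.0425). Of 8 SoxC-related genes tested, Stmn1, a tubulin-binding protein, was higher (0.59) and Elavl4 (-0.54), Dcx (-0.40) and Tead2 (-0.15) were lower. Of 12 SoxB1-related genes tested, 3 were higher (Prom1 0.30, Sox1 0.28, Notch1 0.27) and Fabp7 was lower (-0.24). Of 7 Sox9 and Nfia genes tested, Id1 was higher (0.39) and Mmd2 (-0.34) and Nfia (-0.12) were lower. Of 4 Sox10-related genes tested none passed, and of 9 co-factors Ctbp1 (0.22) and Ctbp2 (0.20) were higher.

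The third comparison concerns oligodendrocyte lineage-like cells, set against progenitor-like cells of tumours 2 to 4. Sox10, the SoxE factor of this lineage, was high in these cells and at most 5.44 CPM in the progenitor-like, neuron-like, astrocyte-like and myeloid-like sums. Unnamed clusters, left out of the test, held 2.98, 5.13, 59.9 and 81.2 CPM of it in tumours 1 to 4. Sox6, Sox8 and Sox2 were higher with it, and Sox9 was lower. 9 members were tested, of which 4 were higher and 1 was lower, where 22.8% of 10483 genes passed, 13.2% higher and 9.64% lower. The class was checked against its markers: oligodendrocyte precursor markers summed to 2572, 3600 and 2773 CPM and myelin-related oligodendrocyte markers to 22067, 4800 and 436 CPM in tumours 2 to 4. Markers of other types were also present: astrocyte markers summed to 2265, 1215 and 1773 CPM, against 156 to 252 CPM in progenitor-like cells of those tumours, and neuron markers to 1403, 1600 and 1614 CPM. T and NK markers ranged from 7.69 to 1486 CPM over the 3 tumours, and the part of other cells' RNA in the Sox levels was not tested. Mog, Mobp, Ermn and Aspa, genes of mature oligodendrocytes, were at 0, as was the granule progenitor marker Hhip.

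Sox10 (chr15:79154908-79165240, minus strand) was at 369, 438 and 188 CPM in oligodendrocyte lineage-like cells, against 0.27, 1.66 and 2.08 CPM in progenitor-like cells. The values rested on 30, 57 and 19 UMIs, and the 2 groups were far apart in each tumour. The difference was 4.84 (SE 0.35, limma adjusted p = 5.64e-11). A Sox10 UMI was found in 8 of 13, 17 of 21 and 9 of 12 oligodendrocyte lineage-like cells, or 61.5, 81.0 and 75%, against 0.26, 1.45 and 2.11% of progenitor-like cells, whose share is read as background. After thinning to 2000 UMIs the shares were 53.8, 38.1 and 41.7%, against 0, 0.21 and 0.21%. Median depths of the oligodendrocyte lineage-like cells were 5415 to 8454 UMIs.

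Sox6, which keeps oligodendrocyte precursors immature, was at 98.5, 92.3 and 109 CPM in oligodendrocyte lineage-like cells, against 0.75, 0.59 and 2.08 CPM in progenitor-like cells. It was near-equal across the 3 tumours, with a difference of 3.30 (SE 0.39, limma adjusted p = 3.76e-07). Sox8, which overlaps with Sox10 in function, was at 111, 84.6 and 49.5 CPM, against 3.47, 2.14 and 7.38 CPM in progenitor-like cells (difference 2.63, SE 0.41, limma adjusted p = 1.91e-05). Sox2 was at 24.6, 84.6 and 69.3 CPM, against 4.76, 1.66 and 8.32 CPM in progenitor-like cells (difference 2.12, SE 0.43, limma adjusted p = 0.00055). None of the 3 genes overlapped between the classes, though Sox2 in tumour 2 rested on 2 UMIs. The share of all genes tested that did not overlap was not counted. Sox2 lies within Sox2ot, a long noncoding gene on the same strand, which was at 55.0 ± 22.8 CPM in oligodendrocyte lineage-like and 0.28 ± 0.13 CPM in progenitor-like cells (SD, n = 3 and, with tumour 1, n = 4), and reads of the 2 genes may not be told apart.

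Sox9 was at 12.3, 38.5 and 29.7 CPM in oligodendrocyte lineage-like cells, against 127, 110 and 131 CPM in progenitor-like cells, from 1, 5 and 3 UMIs. Each oligodendrocyte lineage-like value was below all of the progenitor-like values (difference -1.92, SE 0.33, limma adjusted p = 8.74e-05). Sox5 was at 61.5, 69.2 and 49.5 CPM, against 21.4, 25.2 and 32.9 CPM in progenitor-like cells, higher in 3 of 3 tumours and just over the threshold (difference 0.94, SE 0.35, limma adjusted p = 0.0527). Sox4 was uneven, at 86.2, 369 and 129 CPM against 156, 199 and 156 CPM in progenitor-like cells (limma adjusted p = 0.904). Sox11 and Sox12 rested on at most 5 UMIs in a tumour and did not pass (adjusted p = 0.799 and 0.489). With cells thinned, the calls of Sox2 (adjusted p = 0.121), Sox8 (0.107) and Sox9 (0.0848) were lost, that of Sox2 was lost without tumour 3 (0.0880) and that of Sox9 at clustering resolution 2 (0.181). Sox5 passed without tumour 4 (0.0406) and with the likeliest doublets removed (0.0277).

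Of 46 oligodendrocyte lineage-like cells in all, 34 had a Sox10 UMI, 20 Sox6, 18 Sox8, 14 Sox2, 29 Sox4 and 6 Sox9. Of the 34 with Sox10, 16 also had Sox6, 14 Sox8, 12 Sox2, 22 Sox4 and 4 Sox9, counts that move with depth and were not tested against independent detection. Genes that act with Sox10 or are reported as its targets were mostly higher too: of 12 listed, 9 were tested, 6 were higher and none was lower. Their median difference was 3.49, beside 0.05 over all genes tested. Olig1 (5.99) and Olig2 (4.69), factors that specify the lineage, and Gjc3, a gap junction gene (4.08), led, followed by Ugt8a (4.00) and Gal3st1 (3.49), enzymes of myelin lipid synthesis, and Nkx2-2 (3.08). None of these genes was used to name the class, but its markers belong to the same lineage. Of 8 SoxC-related genes tested, Map2, a microtubule-associated protein that young oligodendrocytes also make, was higher (0.86) and 4 were lower: Tead2 (-2.5), Neurod1 (-2.06), Stmn1 (-1.94) and Tubb3 (-1.0). Of 13 SoxB1-related genes tested, Fabp7 (3.73) and Hes5 (2.80), genes of glial precursors, were higher and 5 were lower, among them Pax6 (-2.44). Of 9 Sox9 and Nfia genes tested, Mmd2 (3.58), Zcchc24 (3.26) and Hes5 were higher and Id1 (-1.88), Nfib (-1.81) and Nfia (-1.40) lower, and of 9 co-factors Hdac2 (-1.32), Tcf3 (-0.71) and Ctbp1 (-0.69) were lower.

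The fourth comparison sets astrocyte-like against progenitor-like cells. Sox9, a marker of astrocytes in normal brain, was near its progenitor-like level in tumours 1 to 3 and higher in tumour 4. None of the 8 members tested passed, where 9.55% of 10290 genes did, 5.73% higher and 3.82% lower. With no adjustment over genes, limma gave 2301 genes at a threshold of 0.05, Sox4 and Sox6 among them. The class was small and mixed: its astrocyte markers summed to 1642, 2610, 4193 and 3054 CPM and granule progenitor markers to 2261, 1923, 2259 and 779 CPM, and the granule progenitor markers stood against 2433, 2990, 3776 and 1820 CPM in progenitor-like cells. Atoh1 was at 110, 74.2, 63.0 and 31.1% of its progenitor-like level there. The part of progenitor RNA in the Sox levels of this class was not tested. Part of the class, mostly from tumour 4, was led by Ttr, Igfbp7 and Lcn2, genes that are not astrocyte markers here. Ttr is a marker of choroid plexus, and ependymal and choroid plexus markers scored second in that cluster (2.07, against 3.17 for astrocyte markers). It held 17 of the 18 astrocyte-like cells of tumour 4 and 0 of the 10 of tumour 1, so the astrocyte-like values of different tumours come from different clusters.

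Sox9 (chr11:112782224-112787760, plus strand) was at 109, 118, 111 and 195 CPM in astrocyte-like cells, against 114, 127, 110 and 131 CPM in progenitor-like cells. Tumours 1 to 3 were alike in both classes and tumour 4 was higher in astrocyte-like cells, so that 2 of 4 tumours were higher (difference 0.10, 95% interval -0.30 to 0.50, limma adjusted p = 0.837). Sox4 was at 212, 108, 154 and 74.1 CPM, lower in 4 of 4 tumours than in progenitor-like cells (difference -0.49, limma adjusted p = 0.101), and passed with TMM scaling (-0.64, adjusted p = 0.0238), which also moved the median of all genes to -0.17. Sox6 was at 0, 9.81, 8.56 and 46.3 CPM, with most of its UMIs in tumour 4 (difference 0.87, limma adjusted p = 0.138), and passed without tumour 1 (1.30, adjusted p = 0.0348). Sox2 was at 5.44, 0, 42.8 and 37.1 CPM (limma adjusted p = 0.232), and a count of 0 in tumour 2 still allows 29.4 CPM. Sox5, Sox8, Sox11 and Sox12 had adjusted p-values of 0.596, 0.585, 0.365 and 0.569. Sox10 had 1 UMI in tumour 1 and 0 in the other 3.

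Other genes of glial Sox programmes did pass in astrocyte-like cells. Of 9 Sox9 and Nfia genes tested, 4 were higher: Id3 (4.21), an inhibitor of helix-loop-helix factors, Slc1a3 (4.21), the glial glutamate transporter, Hes5 (2.72), a Notch effector, and Mmd2 (1.93), while Nfia was lower (-0.67). The median was 0.88, beside -0.07 over all genes tested. Of 13 SoxB1-related genes tested, Fabp7 (4.20), a radial glial lipid-binding protein, Hes5, Hes1 (1.32) and Vim (1.01) were higher and Prom1 was lower (-0.99). Of 5 Sox10-related genes tested, Olig1 (2.21), Olig2 (1.92), S100b (1.70) and Gjc3 (1.10), which astroglia can also express, were higher. Of 9 SoxC-related genes tested, Stmn1 (-0.77) and Tead2 (-0.63) were lower, and of 9 co-factors Tcf3 (-0.71) and Hdac2 (-0.64) were lower.

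Between the 2 glial classes of tumours 2 to 4, the SoxE genes parted. Sox10, Sox6 and Sox8 were higher and Sox9 was lower in oligodendrocyte lineage-like cells, 4 of 9 members tested, where 5.23% of 10624 genes passed, 3.59% higher and 1.65% lower. Sox10 had 106 UMIs over the 3 oligodendrocyte lineage-like sums, against 0 UMIs in the astrocyte-like sums of those tumours. It was thus at least 49.2-fold higher, against a limit of 3 UMIs over the group (6.9 CPM), with limma adjusted p = 5.60e-08. Sox9 was at 12.3, 38.5 and 29.7 CPM in oligodendrocyte lineage-like cells, against 118, 111 and 195 CPM in astrocyte-like cells. The ranges did not overlap (difference -2.07, SE 0.43, limma adjusted p = 0.00302).

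Sox6 averaged 99.9 ± 8.42 CPM in oligodendrocyte lineage-like and 21.6 ± 21.5 CPM in astrocyte-like cells (SD, n = 3 each), a difference of 2.00 (limma adjusted p = 0.00925). Sox8 averaged 81.6 ± 30.7 and 13.8 ± 8.10 CPM in those classes, a difference of 1.93 (limma adjusted p = 0.0233). Neither gene overlapped between the classes, and the share of all genes that did not was not counted. The Sox6 call was lost without tumour 3 (adjusted p = 0.103), that of Sox8 without tumour 2 (0.122) or tumour 3 (0.184), and those of Sox6, Sox8 and Sox9 with cells thinned (0.428, 0.562 and 0.222). Sox2, Sox4, Sox5, Sox11 and Sox12 did not pass (adjusted p from 0.238 to 0.934).

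Among the lists, of 9 Sox10-related genes tested, 7 were higher in oligodendrocyte lineage-like cells, led by Ugt8a (4.23), Gal3st1 (3.54) and Olig1 (3.53), with a median of 2.44 beside 0.09 over all genes tested. Of 9 Sox9 and Nfia genes, Zcchc24 (2.18) and Mmd2 (1.60) were higher and Id3 (-4.30), Slc1a3 (-3.46) and Id1 (-2.65) lower. Of 12 SoxB1-related genes, none was higher and 4 were lower: Vim (-2.98), Nes (-2.01), Hes1 (-2.0) and Pax6 (-1.93). Of 8 SoxC-related genes, Neurod1 (-2.16), Tead2 (-1.89) and Stmn1 (-1.06) were lower. None of 9 co-factors passed.

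**Figure D3:**
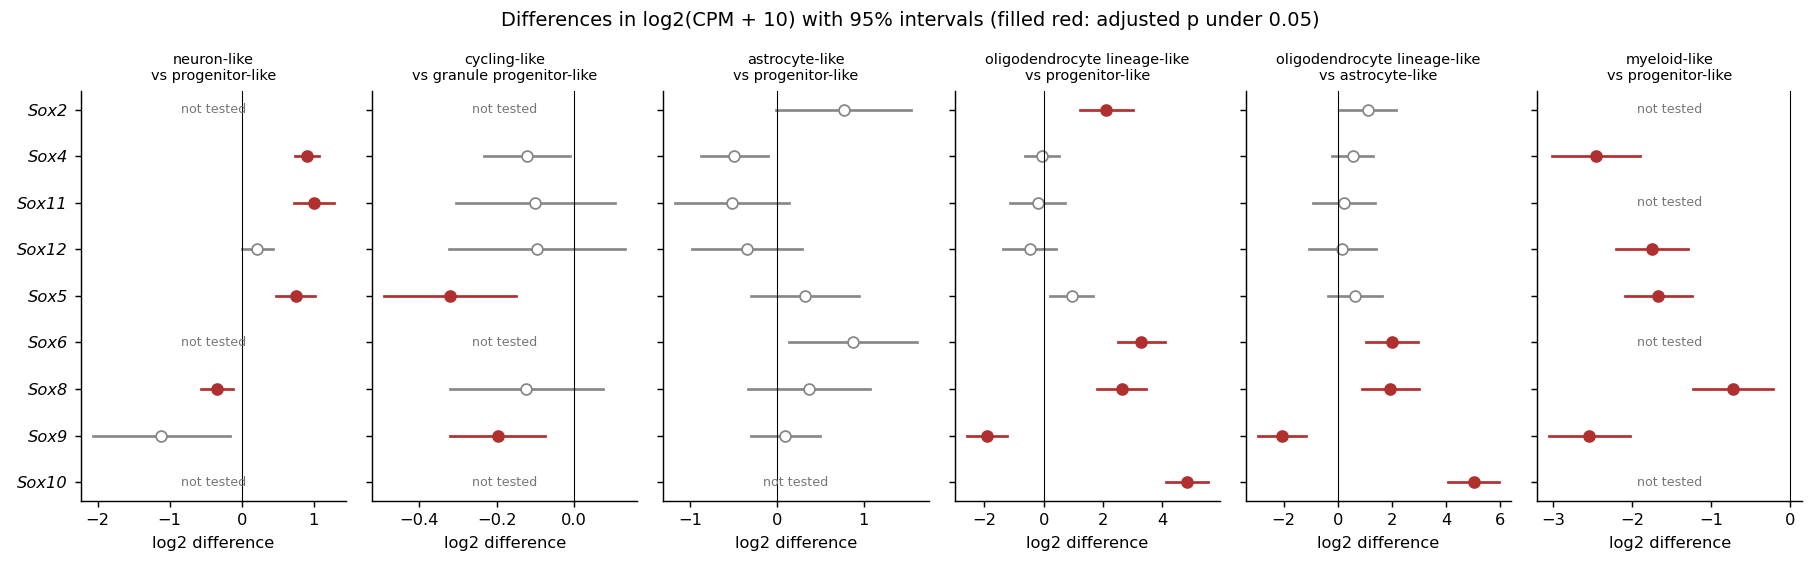
Difference of each Sox gene on the log2(CPM + 10) scale with its 95% interval in 6 comparisons of classes within tumours, filled red where the limma adjusted p was under 0.05; the axes differ between panels. In neuron-like cells Sox4, Sox11 and Sox5 are to the right of 0. In oligodendrocyte lineage-like cells Sox10, Sox6, Sox8 and Sox2 are to the right and Sox9 to the left.

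The last tested comparison sets myeloid-like cells, the main host class, against progenitor-like cells. All 5 members tested were lower, in a comparison where 64.9% of 9782 genes passed, 48.5% lower, and where the median of all genes was -0.48. Sox4 was at 35.0, 43.7, 11.3 and 20.7 CPM in myeloid-like cells, against 238, 156, 199 and 156 CPM in progenitor-like cells (difference -2.45, SE 0.25, limma adjusted p = 4.06e-05). Sox9 was at 9.25, 16.5, 22.6 and 5.12 CPM, against 114, 127, 110 and 131 CPM in progenitor-like cells (difference -2.54, SE 0.22, limma adjusted p = 1.96e-05). Neither gene overlapped between the classes, and the share of all genes that did not was not counted.

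Sox12 averaged 1.08 ± 0.842 CPM in myeloid-like and 27.6 ± 6.78 CPM in progenitor-like cells, and Sox5 averaged 1.18 ± 0.868 and 25.7 ± 5.02 CPM in those classes (SD, n = 4 each). Their differences were -1.75 and -1.67 (limma adjusted p = 8.90e-05 and 7.90e-05). Sox8 was lower by -0.73 (adjusted p = 0.0184), a call lost without tumour 4 (0.0554), with no block for tumour (0.0750), at clustering resolution 2 (0.161) and with mean deposited log2 values (0.312). Sox2 and Sox11 did not exceed 3.54 CPM in any myeloid-like sum, and neither was tested.

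Free RNA from the tumour cells can give such low levels in host cells. As a share of the progenitor-like level, myeloid-like cells held 14.7, 28.1, 5.7 and 13.3% for Sox4 and 8.1, 13, 20.6 and 3.9% for Sox9, beside 4.5, 6.6, 25.6 and 4.9% for Atoh1. Sox4 stood above Atoh1 in tumours 1, 2 and 4 and below it in tumour 3, which had 12 myeloid-like cells. The part of free RNA was not tested. Of 8 SoxC-related genes tested all 8 were lower, with a median of -2.72, and of 11 SoxB1-related genes 8 were lower and Vim, which macrophages also make, was higher (0.99). Of 7 Sox9 and Nfia genes 5 were lower and none higher, of 4 Sox10-related genes 3 were lower (S100b -1.74, Olig1 -1.60, Olig2 -1.40), and of 9 co-factors 8 were lower.

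**Figure D4:**
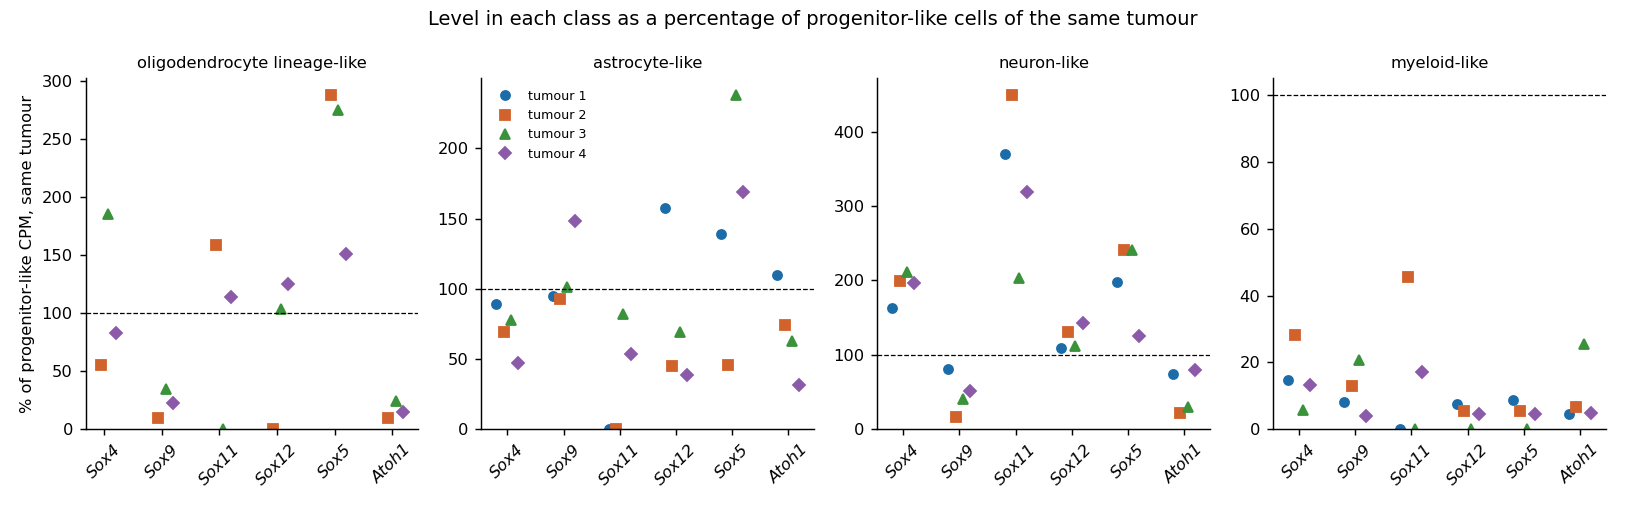
Level of Sox4, Sox9, Sox11, Sox12, Sox5 and Atoh1 in 4 classes as a percentage of the level in progenitor-like cells of the same tumour, with 1 point per tumour, a dashed line at 100% and axes that differ between panels. In neuron-like cells Sox4 is at 163 to 212% and Sox11 at 203 to 450%, while Atoh1 is at 22.3 to 78.9%.

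T and NK cell-like cells were numerous enough in tumours 2 and 4 alone, and with a minimum of 3 tumours no test was run. They held 18.5 and 2.34 CPM of Sox4, against 43.7 and 20.7 CPM in myeloid-like cells and 156 and 156 CPM in progenitor-like cells. Sox9 was at 9.26 and 4.69 CPM, against 16.5 and 5.12 CPM in myeloid-like cells. These classes numbered 11 and 160 T and NK cell-like cells, and the Sox4 values rested on 2 UMIs in each tumour. Sox2, Sox5, Sox10, Sox11 and Sox12 were at 0 in both tumours. In tumour 2, whose sum held 107946 UMIs, a count of 0 still allows 27.8 CPM. That limit is above the progenitor-like levels of Sox5, Sox11 and Sox12 there (21.4, 7.75 and 21.9 CPM).

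Set in order of the mean over tumours, Sox4 ran from neuron-like cells (357 ± 57.0 CPM, n = 4) through oligodendrocyte lineage-like (195 ± 153, n = 3), progenitor-like (187 ± 39.3, n = 4) and astrocyte-like cells (137 ± 59.7, n = 4) to myeloid-like cells (27.7 ± 14.4, n = 4). The 3 classes in the middle overlapped, and oligodendrocyte lineage-like cells of tumour 3 (369 CPM) lay within the neuron-like range (307 to 421 CPM). Sox9 ran from astrocyte-like (133 ± 41.2 CPM) through progenitor-like (121 ± 10.1), neuron-like (55.9 ± 30.5) and oligodendrocyte lineage-like (26.8 ± 13.3) to myeloid-like cells (13.4 ± 7.75). Its first 2 classes overlapped, as did its last 3 in turn. By cells, 80.9% of the 2666 cells with a Sox9 UMI were progenitor-like, a class that made up 57.9% of all cells. Of 3659 cells with a Sox4 UMI, 68.0% were progenitor-like and 18.0% neuron-like, while neuron-like cells made up 12.7% of all cells.

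The genes whose level was most like a member's were taken by Pearson's r over 30 sums of tumour and class, which share 4 libraries and are given as a description. Nearest to Sox4 were Rundc3a, H2afy2 and Prdx2 (r = 0.94 each), and to Sox11 Scrt1 (0.85), Scrt2 (0.85) and Megf9 (0.84). Nearest to Sox12 were Nr2f2 (0.93), Gtf2ird1 (0.93) and Usp46 (0.91), and to Sox5 Lrrn1, Sema6a and Rgs17 (0.94 each). Nearest to Sox9 were Syt13 (0.93), Prm1 (0.92) and Smo (0.91), the last of which is the sonic hedgehog signal transducer. Nearest to Sox10 were Gm21846, Sstr1 and Gal3st1 (0.99 each), to Sox6 Irx3 (0.96), Vwc2 (0.96) and Afap1l2 (0.95), to Sox8 Cryab (0.91), 2810468N07Rik (0.89) and Grin3a (0.87), and to Sox2 Kctd4, AC163993.1 and Plekhb1 (0.90 each). Among the members, the closest pairs were Sox4 with Sox12 (0.90), Sox6 with Sox10 (0.86), and Sox4 with Sox5 and Sox6 with Sox2 (0.85 each), whereas Sox9 with Sox10 gave -0.12 and Sox9 with Sox6 gave 0.03.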

How the data were processed

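Single-cell RNA was measured in 4 tumours of 1 group, on the 10x Genomics platform. The submitters' processing notes name Cell Ranger, Seurat and the build mm10, whose versions are not given in the sources used here. Values were deposited as log2 of a size-factor-scaled UMI count plus 1 per gene and cell. Undoing that step gave whole UMI counts within 0.01 for 100% of values, and these counts were used. Tumours 2 to 4 list genes seen in at least 5 cells.

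A minimum of 500 genes per cell and a maximum of 10% mitochondrial UMIs removed no cell. A doublet caller marked 21 of 6509 cells (0.323%), far under the 100 expected, and so did not work; the 21 were left out. The other 6488 were clustered with scanpy 1.11.5 and leidenalg 0.10.2 on 1000 variable genes, 30 components, 15 neighbours and resolution 1, without Sox, listed or mitochondrial genes. Glial clusters were clustered again (5 components, resolution 0.5). Clusters were named from preset markers, with thresholds set after the clusters were seen. 288 cells stayed unnamed.

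UMIs were summed per tumour and class (at least 10 cells in at least 3 tumours). log2(CPM + 10) was fitted with limma 3.58.1 (R 4.3.3, trend and robust), keeping the tumour as a block because both classes come from the same tumour, on genes with a mean of at least 5 CPM. p-values were adjusted over all genes by Benjamini-Hochberg. A difference on this scale understates the change of low genes. Values said not to overlap between classes are a description, as the share of all genes without overlap was not counted. Because the labels do not give separate mice, p-values measure the spread between these samples. Class sums held from 81253 to 18709432 UMIs, so 3 UMIs, the limit that a count of 0 allows, equalled 36.9 CPM in the shallowest glial sum. Limits and shares cover counting error only. The method was tested on simulated data.

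The members and lists were chosen with earlier results of these data known. All 10 members are named, with up to 3 called genes per list with the largest difference, and the 3 genes nearest to each member in level. Listed genes beyond those 3 are named where few passed and were chosen after their values were seen. Alternatives covered pseudocounts of 1 and 50, no filter, mean deposited log2, cells thinned to 2000 UMIs, TMM, no replicate block, each tumour left out, resolutions 0.5 and 2 and doublets kept. Removing from each tumour the share of cells expected to be doublets (0.8% per 1000 cells) and joining a deep unnamed cluster to the progenitors were added after seeing the data. Values of some listed genes are not reported here.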

Additional observations from a re-analysis of the deposited data

Results flagged for a closer look

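Among 37 sets of 4 tumours with at least 20 UMIs of a Sox gene in a class, 6 had 1 tumour far from the other 3, where chance gives about 1 in 20. In tumour 1, Sox8 was at 27.3 CPM in cycling-like cells and at 19.4 CPM in neuron-like cells, and Sox6 was at 3.24 CPM in cycling-like cells, each far above the other tumours. Tumour 1 had the deepest cells, with a median of 15284 UMIs, and its skeletal muscle-like cells held 104 CPM of Sox8 and 10.5 CPM of Sox6. The part of depth or muscle RNA in these values was not tested. Sox2 in cycling-like cells of tumour 3 was far below the others, at 1.88 CPM. The cycling-like class of tumour 4 had 10 cells, where 1 UMI equalled 5.08 CPM. Its Sox2, Sox6 and Sox8 values in these sets therefore rest on very few UMIs or none. Sox9 in astrocyte-like cells of tumour 4 was far above the others, at 195 CPM. Sox11 in the unnamed cells of tumour 2 was far above the others, at 33.3 CPM.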

How the results depend on the processing

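Neuron-like cells gave 4 members called. For cycling-like cells, 2 members were called, and 0 with mean deposited log2 values, with thinned cells and with no replicate block, 1 at resolution 0.5 and 0 to 2 with 1 tumour left out. For astrocyte-like cells, 0 were called, and 1 with TMM and 0 to 1 with 1 tumour left out. Oligodendrocyte lineage-like against progenitor-like cells gave 5, and 2 with thinned cells. Against astrocyte-like cells they gave 4, and 2 at a pseudocount of 1, 2 with mean log2 values, 1 with thinned cells and 2 to 4 with 1 tumour left out. Myeloid-like cells gave 5, and 9 with no filter. With the main settings, 42.1, 30.9, 9.55, 22.8, 5.23 and 64.9% of all genes tested were called in these comparisons, in the order given. The shares of all genes under each alternative are not set beside the counts. The counts therefore do not show whether Sox genes moved more than other genes. The causes were not tested, except that with no filter more members were tested and that thinning leaves fewer UMIs. No called result changed sign, while some that were not called did. Of the members' results, 551 kept their side of the threshold, 12 newly passed and 37 no longer did.

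Every tumour holds both classes compared, so the tumour pairs them. Without the block, genes called fell to 1509 for neuron-like cells, against 4164, and to 231 for cycling-like cells, against 3005. Thinning moved the median of all genes to -0.31 for astrocyte-like cells. Small glial classes (81253 to 215797 UMIs per sum) limit what could be seen of Sox2, Sox11 and Sox12. Fits that leave 2 tumours rest on the spread pooled over genes. At resolution 0.5 no glial values, and with doublets kept no astrocyte-like values, could be had. T and NK cell-like comparisons had 2 tumours, under the minimum of 3, and were not run.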

Other observations

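Sox genes outside the 10 members were also measured. Sox1, the other SoxB1 gene, averaged 16.2 ± 5.31 CPM in neuron-like and 29.9 ± 5.32 CPM in progenitor-like cells (SD, n = 4 each), and was lower in neuron-like cells (difference -0.62, limma adjusted p = 0.0012). In cycling-like cells it was higher than in granule progenitor-like cells (difference 0.28, limma adjusted p = 0.0205), where Sox5 and Sox9 were lower. Sox18, known as a SoxF gene of vessels and lymphatics, averaged 55.1 ± 25.7 CPM in neuron-like and 89.2 ± 45.4 CPM in progenitor-like cells (difference -0.57, limma adjusted p = 0.0093). In oligodendrocyte lineage-like cells Sox18 had 2 UMIs in all (5.13 CPM on average), and in myeloid-like cells it was lower than in progenitor-like cells (difference -2.53, limma adjusted p = 9.15e-06).

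Sox10 UMIs were found in 137 cells, of which 34 were oligodendrocyte lineage-like, 55 were in unnamed clusters and 33 were progenitor-like. The unnamed cells held 2.98, 5.13, 59.9 and 81.2 CPM of Sox10 in tumours 1 to 4. Skeletal muscle-like cells, 52 cells of tumour 1, held 104 CPM of Sox8, 179 CPM of Sox4 and 12.9 CPM of Sox9. Neutrophil-like cells held 136 CPM of Sox4 in tumour 2, where there were 10 cells and 11 Sox4 UMIs. The same 10 cells held 136 CPM of Atoh1 and 112 CPM of Sox9. In tumour 4, where there were 370, the levels were 5.68 CPM of Sox4, 6.32 CPM of Atoh1 and 9.47 CPM of Sox9. The part of tumour cell RNA in these sums was not tested. Dendritic cell-like cells held 17.0 and 10.6 CPM of Sox4 in tumours 2 and 4, from 1 and 25 UMIs in 13 and 208 cells.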
